A study of Mus musculus with 9 samples.

Results

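BaF3 cells carrying the fusion kinase BCR-RET were compared with BaF3 cells carrying FGFR1OP-RET, with 3 arrays a side. These are 6 of the 9 arrays of the series, taken by their titles. BaF3 is a mouse haematopoietic cell line that depends on interleukin-3 for growth. The cells had been infected with a retrovirus for one fusion and sorted on the fluorescence of EGFP, and the other 3 arrays were of BaF3 cells infected with BCR-ABL, given in the series design as the P210 form. Total RNA was hybridised to Affymetrix MouseGene 1.0 ST arrays, and genes were read from probe sets with a single gene symbol. A gene with several such probe sets was represented by the one with the highest mean over the 9 arrays, which left 19938 genes. The labels do not state that the 3 arrays of a fusion are separate cultures, and p-values therefore cover only the array-to-array spread, which could be technical. All cells were sorted, infected cells of 1 line, and cells without a fusion were not analysed here. The sources used here do not give whether interleukin-3 was in the medium.

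RET is a receptor tyrosine kinase that normally answers to ligands of the GDNF family through a GFR-alpha co-receptor. When activated, it signals through adaptors such as the SHC, GRB2 and DOK proteins to the RAS and ERK, PI3K and AKT, and STAT pathways. In the fusions, the RET kinase domain is joined to a partner that brings kinase molecules together, so that the kinase is active without ligand. BCR contributes a coiled-coil oligomerisation domain and is also the partner in BCR-ABL. FGFR1OP, now named CEP43, is a protein of the centrosome. The series title connects both RET fusions with chronic myelomonocytic leukaemia and with monocytic differentiation. Both groups carried a RET fusion, so the comparison asks how cells with different partners of the same kinase differ.

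The deposited values are log2 intensities made by RMA, and a difference of 1 is a 2-fold change. Differences are given as BCR-RET minus FGFR1OP-RET, so that positive values are higher in BCR-RET cells. Correlations between arrays were taken over all 35557 probe sets. They were 0.993 to 0.996 within BCR-RET, 0.993 to 0.994 within FGFR1OP-RET and 0.990 to 0.995 between the groups. Over all genes the median difference was 0.03. The interleukin-3 receptor chains Il3ra and Csf2rb, on which the line depends, lay at 10.24 to 10.60 and at 12.63 to 12.89 over the 6 arrays. The B-lineage markers Pax5, Ebf1, Cd79a and Vpreb1 lay between 5.94 and 7.66, Cd79b lay between 9.47 and 9.997, and none of the 19 B lymphoid genes passed the test between the groups. Detection calls were not used, so low values cannot be told from absence.

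The fusion partner genes were read next. Ret was at 8.07, 8.003 and 8.003 on the BCR-RET arrays and at 8.11, 8.02 and 8.05 on the FGFR1OP-RET arrays, with overlapping groups (adjusted p = 0.818). Bcr was 0.29 higher in BCR-RET cells and Cep43 0.10 lower, and neither difference passed the test (adjusted p = 0.266 and 0.328). Abl1, a partner in neither RET fusion, was 0.21 lower and did not pass either (adjusted p = 0.213). For Bcr, Cep43 and Abl1 the groups did not overlap, as for 15.3% of all genes. These mouse probe sets are no check of the labels, because the origin of the cloned sequences is not in the labels.

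At an adjusted p under 0.05 in limma, 265 genes differed between the RET fusions, which is 1.33% of the genes tested. Of these, 95 were higher in BCR-RET cells (0.476% of the genes) and 170 were higher in FGFR1OP-RET cells (0.853%). In percent, the calls divided 35.8 to 64.2, and when each array was centred on its median they divided 18.6 to 81.4. A difference of at least 2-fold was found for 32 genes (0.16%), 11 of them higher with BCR-RET and 21 with FGFR1OP-RET. For all 265 genes the 3 arrays of one group lay above the 3 arrays of the other, as they did for 15.3% of all genes. The plot of difference against mean level shows the 265 changed genes in colour.

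**Figure D1:**
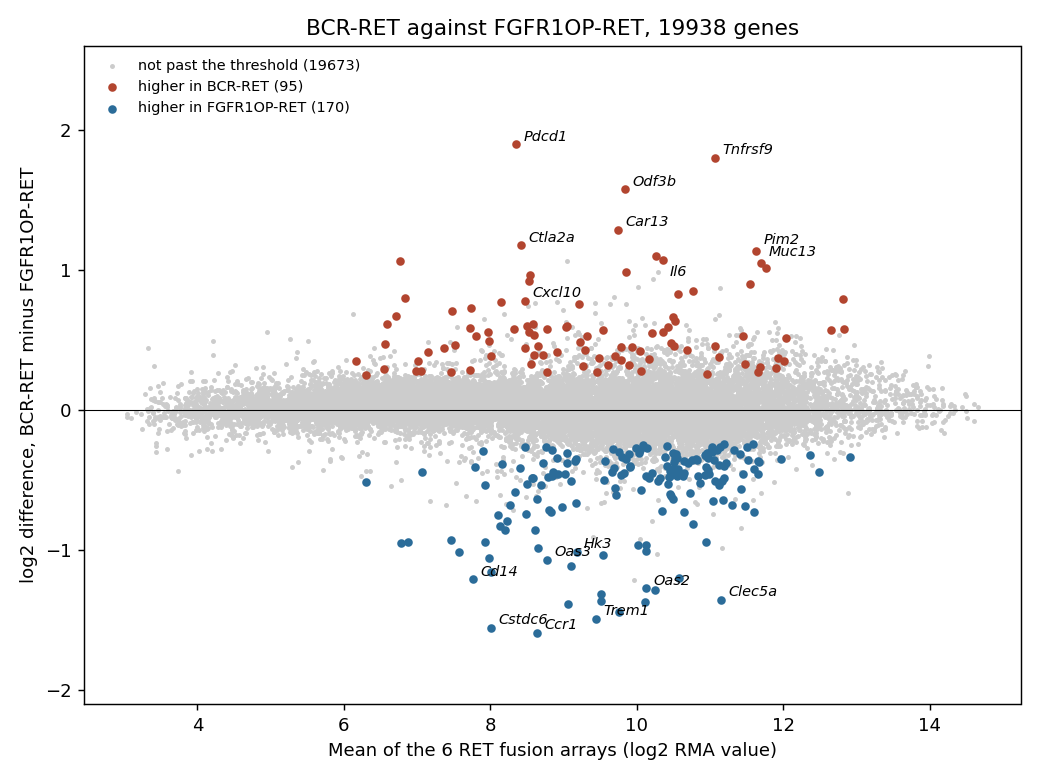
Log2 difference between BCR-RET and FGFR1OP-RET cells against the mean log2 RMA value over the 6 arrays, 1 point per gene; coloured points passed an adjusted p under 0.05. Pdcd1 and Tnfrsf9 stand highest, at 1.90 and 1.80, and Ccr1 and Cstdc6 lowest, at -1.59 and -1.56.

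The number of calls moved with the arrays in the fit. With only the 6 RET fusion arrays 34 genes passed, all of them among the 265, and 12 of them changed by at least 2-fold. Without BCR-ABL replicate 1, 2 or 3 the count was 153, 122 and 145. Without BCR-RET replicate 2 or 3 it was 90 and 100. For FGFR1OP-RET replicate 1 or 2 it was 171 and 86. The count of at least 2-fold fell to 17 without BCR-RET replicate 2, whereas leaving out FGFR1OP-RET replicate 2 gave 18. There were 33 genes that passed under every setting that tested them, 10 of them higher with BCR-RET and 23 with FGFR1OP-RET. The 10 were Pdcd1, Tnfrsf9, Odf3b, Pim2, Il6, Muc13, Asb11, Nudt7, Cpne5 and Fam178b. The 23 included Cstdc6, Slfn1, Oas3, Pram1, Hk3, Lmo2, Cd200r4, Ncf1, Pilrb1, Cebpe, Ifi27, Ern1, Mocos, Alas1, Irf9, Igf1r, Arid3a, Rasa2, Micall1, Sh2d3c, Nin and the predicted gene Gm10522. Apart from Cdh17, no other gene named here as changed passed with the 6 arrays alone. In the sentences on single genes, a second adjusted p is the highest found when each of the 9 arrays was left out in turn, with the array concerned.

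The largest differences toward BCR-RET, among genes named by the rule, were in Pdcd1 and Tnfrsf9. Pdcd1 encodes PD-1, an inhibitory receptor of activated lymphocytes. It was at 9.36, 9.40 and 9.14 on the BCR-RET arrays and at 7.39, 7.37 and 7.45 on the FGFR1OP-RET arrays. The groups were far apart, a 3.72-fold difference (1.90, SE 0.07, adjusted p = 6.88e-06). Tnfrsf9 encodes the costimulatory receptor 4-1BB. Its values were 11.81, 12.09 and 11.999 against 10.29, 9.89 and 10.32, again without overlap (3.49-fold, SE of the log2 difference 0.12, adjusted p = 0.000268).

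Of 25 immune checkpoint and costimulation genes, 4 were higher in BCR-RET cells and none was higher in FGFR1OP-RET cells, against 0.476% and 0.853% of all genes. The median difference of the 25 was 0.06, against 0.03 for all genes. Besides Pdcd1, the 4 were Cd96, a receptor of T and NK cells, Cd48, the ligand of the SLAM family receptor 2B4, and Slamf1, a self-ligand receptor of the same family. Cd96 differed by 0.68 (adjusted p = 0.00799, at most 0.0469 without an array) and Cd48 by 0.64 (adjusted p = 0.00591, at most 0.0336). Slamf1 differed by 0.62 (adjusted p = 0.023), and its call was lost on leaving out any 1 of 4 arrays, with 0.0971 without BCR-RET replicate 2. Cd96 and Slamf1 lay low, at 6.25 to 7.14 and at 6.17 to 7.07 over the 6 arrays. The median over all probe sets of an array was 8.01 to 8.04. The number of calls in the list was between 3 and 6 when an array was left out. Havcr2, which encodes the checkpoint receptor TIM-3, had a difference of 0.88 that did not pass (adjusted p = 0.0767). The PD-1 ligands Cd274 and Pdcd1lg2 had differences of 0.01 and 0.27, and Ctla4 of -0.05, none past the threshold.

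Of 32 genes of the TNF receptor and ligand family, 2 were higher in BCR-RET cells, Tnfrsf9 and Tnfsf4, and none was higher in FGFR1OP-RET cells, against 0.476% and 0.853% of all genes. Tnfsf4, which encodes OX40 ligand, differed by 0.47 (adjusted p = 0.048), and its call was lost on leaving out any 1 of 8 arrays (0.175 without BCR-RET replicate 3). Its values were low as well, at 6.21 to 6.89 over the 6 arrays. Tnfsf9, the ligand of 4-1BB, had a difference of 0.32 (adjusted p = 0.454). Il2ra, the alpha chain of the interleukin-2 receptor, was at 11.93, 12.07 and 11.98 in BCR-RET cells and at 10.93, 10.99 and 11.35 in FGFR1OP-RET cells. The groups did not overlap (0.90, SE 0.10, adjusted p = 0.0053, at most 0.0306 without an array). Of 36 cytokine receptors, 5.56% passed, against 1.33% of all genes. Besides Il2ra, this was Il18rap, a chain of the interleukin-18 receptor, higher in FGFR1OP-RET cells (-0.36, adjusted p = 0.0463). Its call was lost on leaving out any 1 of the 9 arrays (0.132 at most).

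Several further genes of lymphocyte signalling, chosen after their values were seen, were also higher in BCR-RET cells. Lat and Lax1, adaptors of lymphocyte antigen receptors, differed by 0.32 and 0.27 (adjusted p = 0.041 and 0.0403). Sla2, a negative regulator of antigen receptor signalling, differed by 0.37 (adjusted p = 0.0157), and Ptprcap, which associates with CD45, by 0.59 (adjusted p = 0.018). Gimap4, a GTPase of immune cells, differed by 0.60 (adjusted p = 0.0488), and Cst7, a cystatin of cytotoxic lymphocytes, by 0.85 (adjusted p = 0.0108). Each of these 6 calls was lost on leaving out some arrays, from 2 arrays for Sla2 (0.0647 without BCR-RET replicate 2) to 9 for Lax1 (0.134 without BCR-RET replicate 2). For Lat and Gimap4 it was 8 arrays, with 0.148 and 0.175 without BCR-RET replicate 3, and for Ptprcap and Cst7 it was 3, with 0.0777 and 0.0642 without FGFR1OP-RET replicate 2. Ptprc, which encodes CD45 itself, was lower in BCR-RET cells by 0.36 (adjusted p = 0.0182), and its call was lost on leaving out any 1 of 5 arrays (0.0773 without BCR-RET replicate 3).

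None of 20 T and NK cell markers passed the test. The defining T-cell gene Cd3e was at 7.73 to 7.97 in BCR-RET cells and at 7.62 to 7.82 in FGFR1OP-RET cells, with overlapping groups (adjusted p = 0.491). Of the 20 markers, 18 had a difference above 0, against 12065 of the 19938 genes, and their mean level was 6.83 to 6.865 on the BCR-RET arrays and 6.73 to 6.78 on the FGFR1OP-RET arrays. The part of other cells in these differences was not tested. In bulk RNA, fewer cells of a kind and less RNA per cell cannot be told apart.

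The plot of the genes with the largest differences gives their values on every array.

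**Figure D2:**
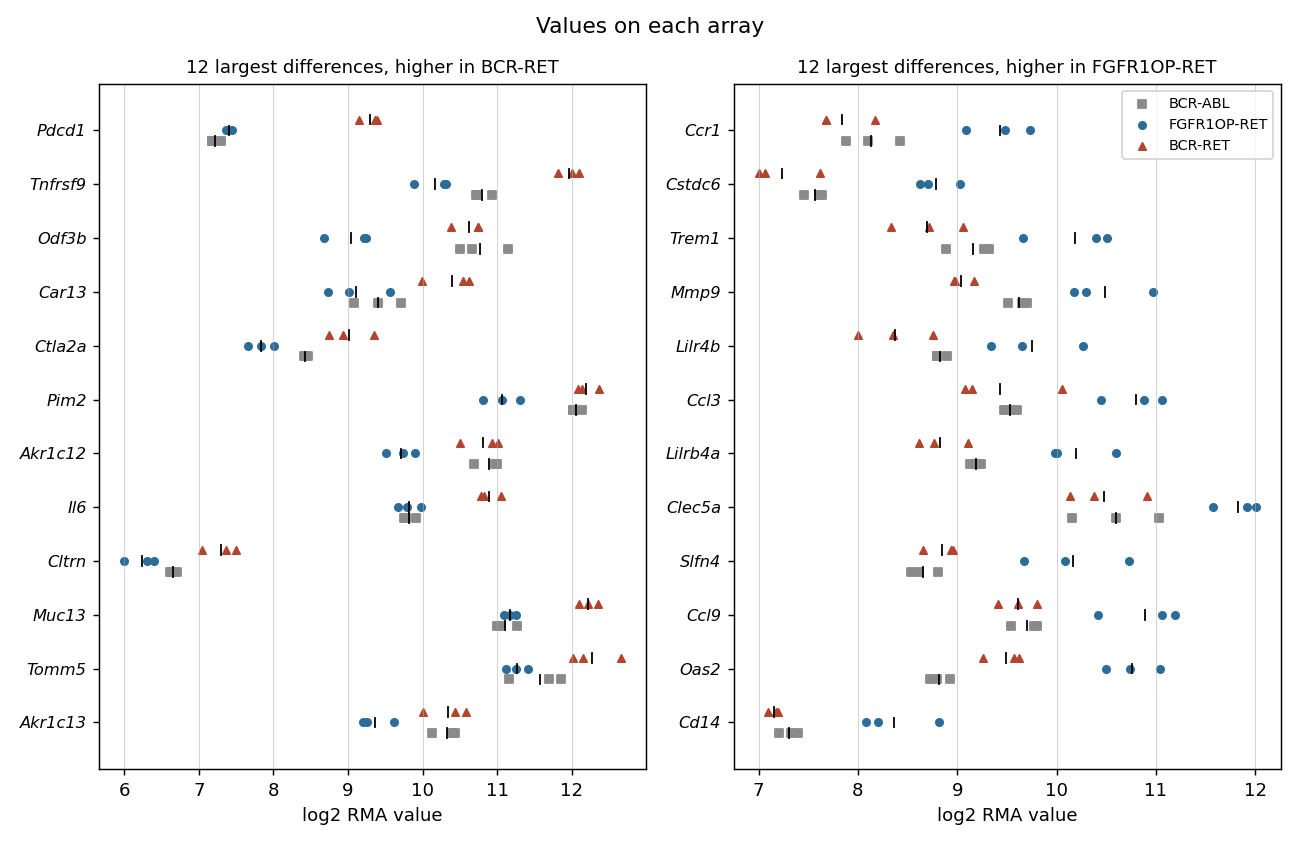
Log2 RMA value on each array for the 12 largest differences in each direction among changed genes; triangles are BCR-RET, circles FGFR1OP-RET and squares BCR-ABL arrays, and the black bar is the mean of 3. For each of the 24 genes the BCR-RET and FGFR1OP-RET arrays do not overlap.

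Secreted factors of the immune system differed in both directions. Il6, the inflammatory cytokine interleukin-6, was at 10.83, 10.79 and 11.05 on the BCR-RET arrays and at 9.98, 9.67 and 9.80 on the FGFR1OP-RET arrays. All BCR-RET arrays were higher, by 2.1-fold (1.07, SE 0.10, adjusted p = 0.0018). Of 32 cytokines, Il6 and Lta (lymphotoxin alpha) were higher in BCR-RET cells, and Il1rn, the antagonist of the interleukin-1 receptor, was higher in FGFR1OP-RET cells. The shares over all genes were 0.476% and 0.853%. Lta differed by 0.56 (adjusted p = 0.00954), a call that was lost on leaving out either of 2 arrays (0.0545 without FGFR1OP-RET replicate 2). Il1rn differed by -0.54 (adjusted p = 0.00591, at most 0.0306 without an array).

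Of 26 chemokine ligands, 2 were higher in each kind of cell, against 0.476% of all genes for BCR-RET and 0.853% for FGFR1OP-RET. Cxcl10, a T-cell attractant induced by interferon, was at 8.79, 9.14 and 8.65 in BCR-RET cells and at 8.09, 8.09 and 8.05 in FGFR1OP-RET cells. It did not overlap (0.78, SE 0.10, adjusted p = 0.00863), and the adjusted p was 0.0501 without FGFR1OP-RET replicate 2. Ccl17, a ligand of Ccr4, was higher in BCR-RET cells by 0.49 (adjusted p = 0.0108, at most 0.0423 without an array), and Ccr4 itself by 0.57 (adjusted p = 0.0499). The call on Ccr4 was lost on leaving out any 1 of 7 arrays (0.184 without BCR-RET replicate 3).

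Ccl3 and Ccl9, attractants of monocytes, were higher in FGFR1OP-RET cells. Ccl3, which encodes MIP-1 alpha, was at 9.08, 9.15 and 10.05 on the BCR-RET arrays and at 10.45, 11.06 and 10.88 on the FGFR1OP-RET arrays. BCR-RET replicate 3 lay close to the FGFR1OP-RET range (-1.37, SE 0.24, adjusted p = 0.0322), and the call was lost on leaving out any 1 of 7 arrays (0.122 without FGFR1OP-RET replicate 2). Ccl9 differed by -1.28 (adjusted p = 0.0129), and its call was lost on leaving out either of 2 arrays (0.0637 without BCR-RET replicate 2). Ccr1, a receptor for both ligands, was at 7.68, 7.68 and 8.17 against 9.09, 9.48 and 9.73. This was the largest difference toward FGFR1OP-RET among the genes named by the rule, 3.01-fold (-1.59, SE 0.19, adjusted p = 0.00591, at most 0.0411 without an array). The number of calls among the chemokine ligands was between 1 and 4 when an array was left out.

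The myeloid genes were examined in 4 lists, covering monocytes and macrophages, primary and late granulocyte genes, and activating and inhibitory receptors. Of their 82 genes, 12 were higher in FGFR1OP-RET cells and 1, Cybb, was higher in BCR-RET cells, against 0.853% and 0.476% of all genes. The median difference of the 82 was -0.11, against 0.03 for all genes. Most members did not pass, as the plot of the 4 lists shows.

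**Figure D3:**
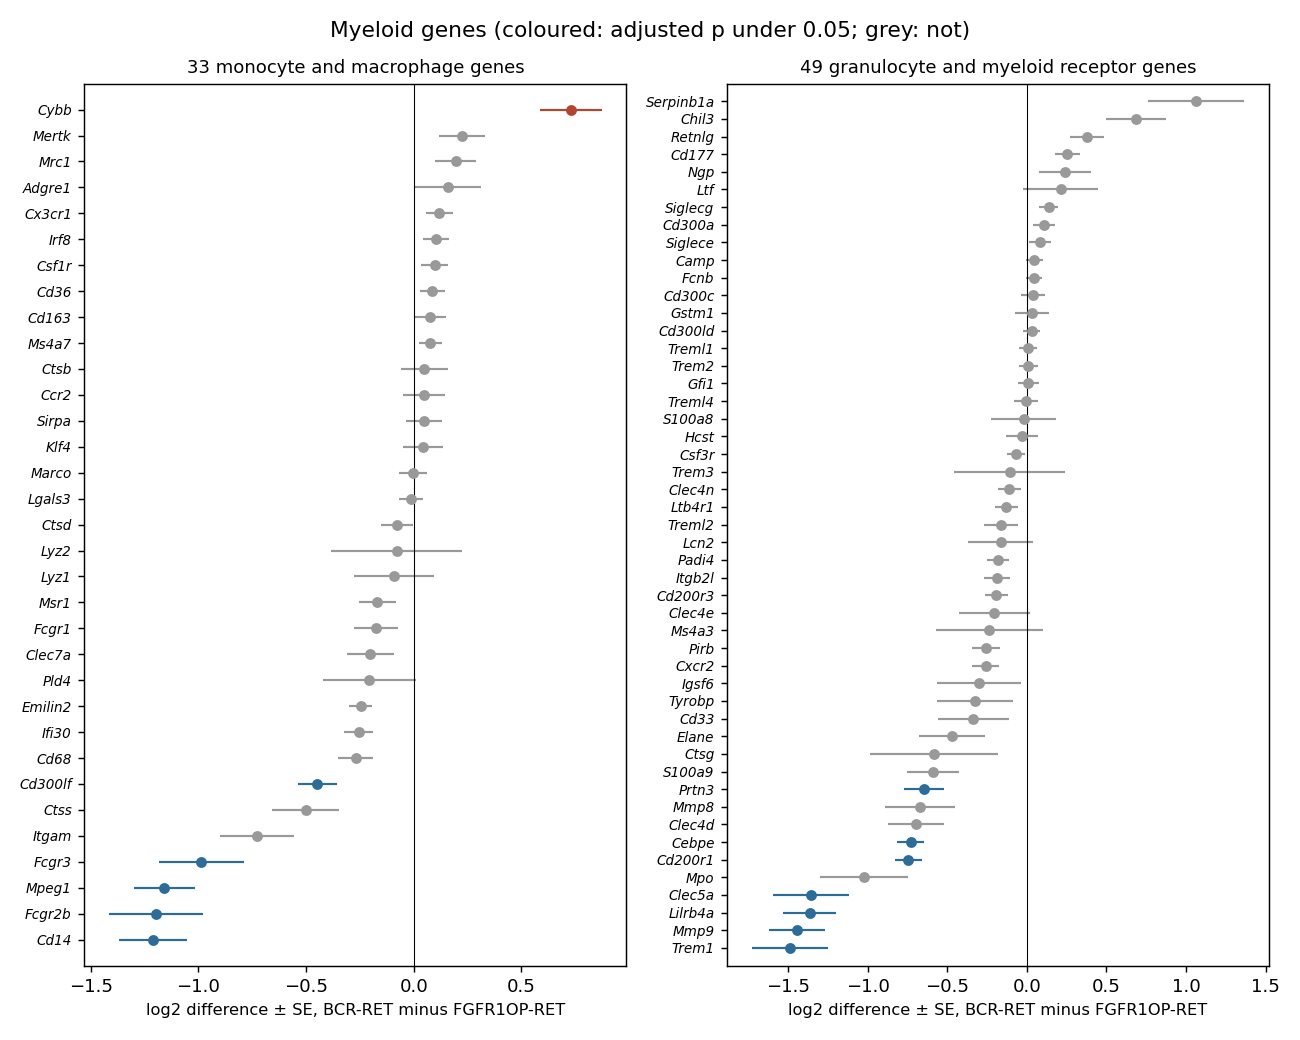
Log2 difference with its SE between BCR-RET and FGFR1OP-RET cells for the members of the myeloid lists, 1 point per gene, with the genes past an adjusted p of 0.05 coloured. The changed genes run from Trem1 at -1.49 to Cybb at 0.73, and most other members lie near 0.

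Among 33 monocyte and macrophage genes, 5 were higher in FGFR1OP-RET cells, against 0.853% of all genes. Cd14, the co-receptor for lipopolysaccharide, was at 7.18, 7.10 and 7.19 in BCR-RET cells and at 8.20, 8.81 and 8.08 in FGFR1OP-RET cells. The groups were 2.31-fold apart (-1.21, SE 0.16, adjusted p = 0.00775, at most 0.0474 without an array). Mpeg1, a pore-forming protein of macrophages, was at 7.31, 7.54 and 7.43 against 8.40, 8.96 and 8.38. It too was separate on every array (-1.16, SE 0.14, adjusted p = 0.00591, at most 0.0313).

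Of the Fc receptors for immunoglobulin G, 2 were also higher in FGFR1OP-RET cells. Fcgr2b, the inhibitory member, differed by -1.20 (adjusted p = 0.0374), and its call was lost on leaving out any 1 of 7 arrays (0.129 without FGFR1OP-RET replicate 2). Fcgr3, an activating member, differed by -0.99 (adjusted p = 0.0499) with 8 such arrays (0.167 without FGFR1OP-RET replicate 2). Cd300lf, an inhibitory receptor, differed by -0.45 (adjusted p = 0.0494), also with 8 (0.179 without BCR-RET replicate 3). The list held 2 to 4 calls when an array was left out, against 6 with all arrays.

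The other defining monocyte genes did not pass the test. Itgam, which encodes CD11b, had a difference of -0.73 (adjusted p = 0.0954), with 8.05 to 8.18 in BCR-RET cells and 8.49 to 9.34 in FGFR1OP-RET cells. Lyz2, the lysozyme of myeloid cells, had a difference of -0.08, Csf1r, the receptor for M-CSF, of 0.10, Adgre1, which encodes F4/80, of 0.16, and Fcgr1 of -0.18. Lyz2 ranged from 10.58 to 11.98 within the FGFR1OP-RET arrays alone.

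Activating and inhibitory receptors of myeloid cells gave 4 calls of 22, all higher in FGFR1OP-RET cells, against 0.853% of all genes. Trem1, which amplifies inflammatory responses, was at 8.33, 8.71 and 9.06 against 9.67, 10.40 and 10.50. The groups did not overlap (-1.49, SE 0.24, adjusted p = 0.0216), but the call was lost on leaving out any 1 of 5 arrays (0.101 without FGFR1OP-RET replicate 2). Clec5a, an activating lectin that signals through DAP12 as Trem1 does, differed by -1.36 (adjusted p = 0.0334), a call that was lost on leaving out any 1 of 6 arrays (0.125 without FGFR1OP-RET replicate 2). Tyrobp, which encodes DAP12, had a difference of -0.33 (adjusted p = 0.563).

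The inhibitory receptors Lilrb4a and Cd200r1 differed by -1.36 and -0.75 (adjusted p = 0.00591 and 0.00515), with at most 0.0387 and 0.0295 without an array. Lilr4b, close in sequence to Lilrb4a, differed by -1.38 (adjusted p = 0.0257), a call that was lost on leaving out any 1 of 7 arrays (0.0979 without BCR-RET replicate 2). Probes of near-identical genes may share signal, so these neighbours are not independent measurements. The list mean of the 22 receptors was 8.49, 8.50 and 8.68 on the BCR-RET arrays and 8.71, 8.95 and 8.96 on the FGFR1OP-RET arrays. Between 2 and 4 of its members passed when an array was left out.

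Paired receptors outside the list, chosen after their values were seen, were also higher in FGFR1OP-RET cells. Cd200r4, an activating relative of Cd200r1, was at 7.09, 6.95 and 6.97 against 8.12, 7.85 and 7.82 (-0.93, adjusted p = 0.0018). Pilrb1, an activating receptor, and Pilra, its inhibitory partner, differed by -0.75 and -0.86 (adjusted p = 0.00723 and 0.0393). Pilrb2 differed by -0.44 (adjusted p = 0.0499). The calls on Pilra and Pilrb2 were lost on leaving out any 1 of 8 and 9 arrays, with highest values of 0.139 without BCR-RET replicate 2, and 0.159 when FGFR1OP-RET replicate 2 was left out.

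Granulocyte genes gave few calls. Of 11 primary granule genes, 2 were higher in FGFR1OP-RET cells, against 0.853% of all genes. Cebpe, the transcription factor of granulocyte maturation, was at 10.21, 10.31 and 10.32 against 10.87, 11.01 and 11.15, without overlap (-0.73, SE 0.09, adjusted p = 0.00591). Prtn3, the serine protease proteinase 3, differed by -0.65 (adjusted p = 0.0456), a call that was lost on leaving out any 1 of 8 arrays (0.141 without BCR-RET replicate 2). The myeloperoxidase gene Mpo and the elastase gene Elane had differences of -1.02 and -0.47 that did not pass (adjusted p = 0.14 and 0.331). Mpo was at 9.42, 9.78 and 10.09 against 10.24, 10.80 and 11.33, without overlap and rising with the replicate number in both groups. Elane overlapped between the groups. Serpinb1a, an inhibitor of these proteases, had a difference of 1.07 that did not pass either (adjusted p = 0.154).

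Of 16 late granulocyte genes 1 passed (6.25%), against 1.33% of all genes. This was Mmp9, the gelatinase B of neutrophil granules. It was at 8.97, 8.98 and 9.17 against 10.30, 10.97 and 10.18, so that all FGFR1OP-RET arrays were higher by more than 1 unit (-1.44, SE 0.18, adjusted p = 0.00591, at most 0.0386 without an array). The calprotectin genes S100a8 and S100a9 had differences of -0.02 and -0.59 (adjusted p = 0.977 and 0.145), and the collagenase Mmp8 of -0.67 (adjusted p = 0.216).

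Among 22 matrix proteases and their regulators, Mmp9, Plaur and Adam8 passed, all higher in FGFR1OP-RET cells, against 0.853% of all genes. Plaur, the receptor of urokinase, differed by -1.002 (adjusted p = 0.00422, at most 0.0295 without an array). Adam8, a membrane protease of leukocytes, differed by -0.50 (adjusted p = 0.0175), and its call was lost on leaving out any 1 of 3 arrays (0.0744 without BCR-RET replicate 2). Thbs1, which encodes the matrix protein thrombospondin 1 and was chosen after its values were seen, differed by -0.96 (adjusted p = 0.0242), a call that was lost on leaving out any 1 of 5 arrays (0.1 without BCR-RET replicate 2).

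The phagocyte oxidase, which makes superoxide, differed in both directions within 1 complex. Cybb, its catalytic subunit, was at 8.15, 7.89 and 8.27 in BCR-RET cells and at 7.23, 7.68 and 7.21 in FGFR1OP-RET cells (0.73, SE 0.14, adjusted p = 0.0485). Its call was lost on leaving out any 1 of 8 arrays (0.179 without BCR-RET replicate 3). Ncf1, the cytosolic subunit p47phox, was at 10.42, 10.31 and 10.34 against 11.20, 11.33 and 10.97, in the opposite order (-0.81, SE 0.08, adjusted p = 0.00259). The other 5 genes of the complex did not pass. Thus 28.6% of the 7 genes passed, against 1.33% of all genes. Cybb was the only member with a difference above 0, and the other 6 lay below it. Nox1, another catalytic oxidase, chosen after its values were seen, was higher in BCR-RET cells by 0.71 (adjusted p = 0.0499), with a call that was lost on leaving out any 1 of 8 arrays (0.175 without BCR-RET replicate 3).

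Cystatins of the stefin A family, inhibitors of lysosomal cysteine proteases, included the second largest difference toward FGFR1OP-RET by the same rule. Cstdc6 was at 7.07, 7.002 and 7.62 against 8.70, 9.03 and 8.63 (-1.56, SE 0.16, adjusted p = 0.00291). Its relatives were read after its value was seen. Csta2 differed by -0.95 (adjusted p = 0.0209), with a call that was lost on leaving out any 1 of 4 arrays (0.0826 without BCR-RET replicate 2). Its values were low, at 6.05 to 7.57 over the 6 arrays. Stfa2 had a difference of -0.99 and Stfa3 of -0.92, neither past the threshold (adjusted p = 0.0527 and 0.193). These genes are near-identical copies and their probes may share signal. Cstb, the stefin outside this cluster, had a difference of 0.30 (adjusted p = 0.436).

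Several myeloid and metabolic genes were chosen after their values were seen. Hk3, a hexokinase of myeloid cells, was at 8.70, 8.63 and 8.69 in BCR-RET cells and at 9.69, 9.70 and 9.66 in FGFR1OP-RET cells, 2.02-fold apart (adjusted p = 2.55e-05). Pram1, an adaptor of neutrophils, was at 9.11, 9.0002 and 8.97 against 9.83, 10.31 and 10.04 (-1.03, adjusted p = 0.003). Lmo2, a transcriptional cofactor of blood stem cells, was at 9.55, 9.72 and 9.65 against 10.58, 10.43 and 10.81 (-0.97, adjusted p = 0.00201). For each of these 3 genes the groups did not overlap.

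Further genes chosen in this way were also higher in FGFR1OP-RET cells. Ern1, the endoplasmic reticulum stress sensor IRE1 alpha, differed by -0.68 and Alas1, the first enzyme of haem synthesis, by -0.64 (adjusted p = 0.00237 and 0.003). Slc15a3, a lysosomal peptide and histidine transporter, differed by -1.11 (adjusted p = 0.00591, at most 0.0347 without an array). Cfp, the complement protein properdin, differed by -0.94 (adjusted p = 0.0145), a call that was lost on leaving out either of 2 arrays (0.0742 without FGFR1OP-RET replicate 2). Igf1r, the receptor for insulin-like growth factor 1, differed by -0.56 (adjusted p = 0.0018), with 11.10 to 11.17 in BCR-RET cells and 11.67 to 11.77 in FGFR1OP-RET cells.

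Of 21 myeloid transcription factors, 3 were higher in FGFR1OP-RET cells, against 0.853% of all genes, and the list median was 0.01. Besides Cebpe these were Id2, an inhibitor of helix-loop-helix factors, and Myb, a factor of haematopoietic progenitors. Id2 differed by -0.46 and Myb by -0.32 (adjusted p = 0.042 and 0.0439), and both calls were lost on leaving out any 1 of 8 arrays (0.158 and 0.131 without BCR-RET replicate 3).

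Interferon response genes differed in both directions, mostly toward FGFR1OP-RET. Interferons induce antiviral genes through the interferon-stimulated response element (ISRE) in their promoters, which IRF9 helps to bind. Of 36 such genes, 8 were higher in FGFR1OP-RET cells and 2 in BCR-RET cells, against 0.853% and 0.476% of all genes. The median difference was -0.25, with 27 of the 36 below 0. All 3 FGFR1OP-RET arrays lay above all 3 BCR-RET arrays for 17 of the genes and the reverse held for 4, against 6.49% and 8.77% of all genes. The list held 5 to 8 calls when an array was left out, against 10 with all arrays. The list mean was 8.55, 8.72 and 8.54 on the BCR-RET arrays and 8.86, 8.86 and 8.79 on the FGFR1OP-RET arrays.

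**Figure D4:**
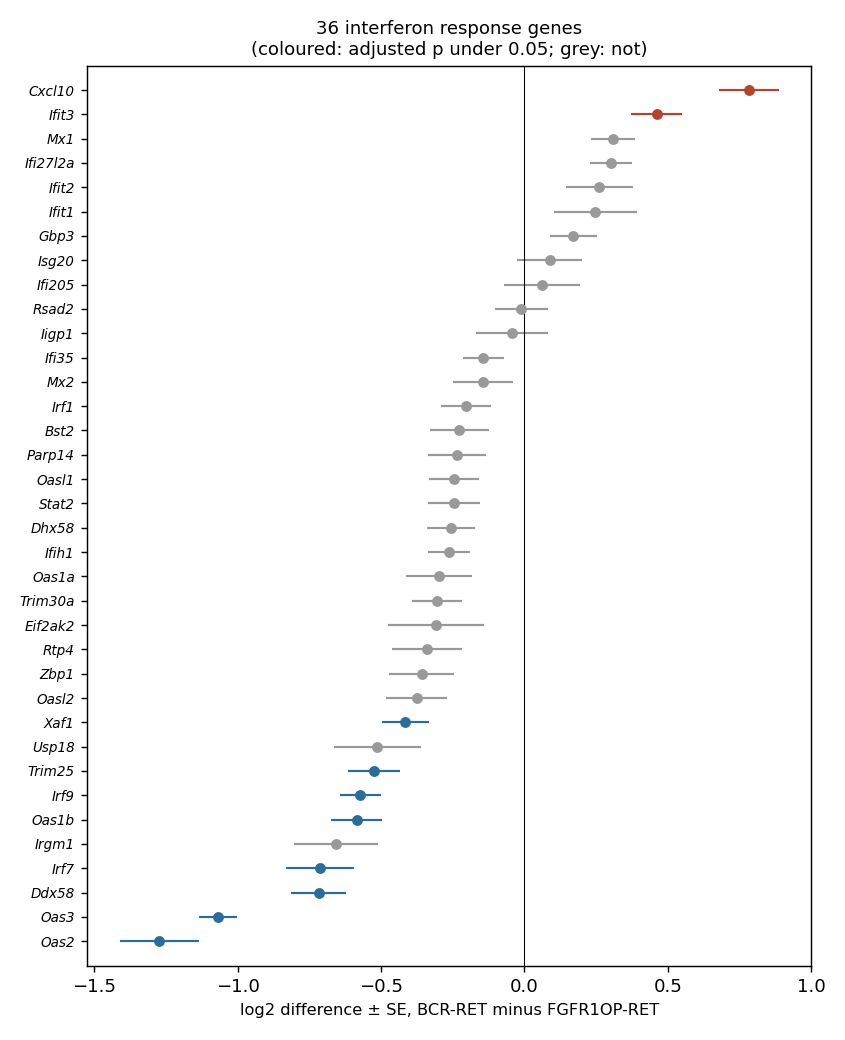
Log2 difference between BCR-RET and FGFR1OP-RET cells with its SE for each of 36 interferon response genes; coloured points passed an adjusted p under 0.05. Oas2 and Oas3 stand lowest, at -1.27 and -1.07, and Cxcl10 and Ifit3 stand highest, at 0.78 and 0.46.

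The promoters of Oas3, Cxcl10 and Ifit3 are shown because all hold an ISRE match while their transcripts differed in opposite directions. That of Il6, which is not in this list, is shown for its NF-kB match, which Cxcl10 has as well. Each is the 250 bases before the gene's start, in the direction of transcription, from RefSeq with the build GRCm38.p6. Capitals mark matches on either strand to an ISRE, searched as GAAA, any pair of bases and GAAA, and to an NF-kB site, searched as GGGA, any pair of bases and TTCC. On the opposite strand these read TTTC, a pair and TTTC, and GGAA, a pair and TCCC. The Oas3 window is chr5:120777660-120777909 on the minus strand, with an ISRE that begins 75 bases upstream. The Cxcl10 window is chr5:92348890-92349139 on the minus strand, with an ISRE at 213 and an NF-kB match at 159 bases upstream. The Ifit3 window is chr19:34583279-34583528 on the plus strand, with 2 ISRE matches, the first at 156 bases upstream. The Il6 window is chr5:30012864-30013113 on the plus strand, with no ISRE and an NF-kB match at 44 bases upstream.
Oas3: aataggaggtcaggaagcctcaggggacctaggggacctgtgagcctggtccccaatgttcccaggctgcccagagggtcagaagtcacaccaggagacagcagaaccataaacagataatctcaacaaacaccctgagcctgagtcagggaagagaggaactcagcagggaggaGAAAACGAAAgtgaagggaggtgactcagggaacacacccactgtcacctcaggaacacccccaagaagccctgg
Cxcl10: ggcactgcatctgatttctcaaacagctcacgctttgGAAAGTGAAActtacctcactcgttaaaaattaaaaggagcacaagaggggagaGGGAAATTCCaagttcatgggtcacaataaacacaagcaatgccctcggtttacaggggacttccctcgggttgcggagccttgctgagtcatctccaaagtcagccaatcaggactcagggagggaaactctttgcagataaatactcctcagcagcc
Ifit3: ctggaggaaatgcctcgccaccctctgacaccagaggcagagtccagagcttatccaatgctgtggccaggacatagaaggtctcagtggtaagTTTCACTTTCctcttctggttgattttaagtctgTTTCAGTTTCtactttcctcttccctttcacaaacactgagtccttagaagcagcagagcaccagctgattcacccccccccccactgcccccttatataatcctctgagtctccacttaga
Il6: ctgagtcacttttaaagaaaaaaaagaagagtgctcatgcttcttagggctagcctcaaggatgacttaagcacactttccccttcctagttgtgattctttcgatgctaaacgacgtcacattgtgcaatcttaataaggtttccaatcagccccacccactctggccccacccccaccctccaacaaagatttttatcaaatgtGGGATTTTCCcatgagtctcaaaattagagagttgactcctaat

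An ISRE match was found in 531 of the 15614 genes with a promoter sequence, or 3.4%. It was found in 12 of the 25 interferon response genes with a sequence, or 48%. Among changed genes it was in 4 of 80 higher in BCR-RET cells (5%), which were Cxcl10, Ifit3, Cybb and Socs1. It was in 9 of 131 higher in FGFR1OP-RET cells (6.87%), including Oas3, Ncf1, Pilra, Pilrb1 and Pilrb2. The NF-kB match stood in 1.33% of all promoters, in 4 of the 80 (Il6, Cxcl10, Akr1c12 and Rgl1) and in 2 of the 131. A STAT site, TTCNNNGAA, which reads the same on both strands, stood in 7.71% of all promoters. It was in 12 of the 80 (15%), including Tnfrsf9, Lta, Ccl17, Cd96 and Muc13, and in 12 of the 131 (9.16%), including Trem1, Ncf1 and Alas1. Each motif was counted on its own, so matches may overlap, and a match describes letters and not binding.

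The Oas genes encode the 2'-5' oligoadenylate synthetases, antiviral sensors of double-stranded RNA. Oas2 was at 9.63, 9.57 and 9.26 in BCR-RET cells and at 11.04, 10.74 and 10.50 in FGFR1OP-RET cells (2.42-fold, SE of the log2 difference 0.14, adjusted p = 0.00338, at most 0.0246 without an array). Oas3, whose ISRE is printed above, was at 8.26, 8.28 and 8.19 against 9.38, 9.34 and 9.22 (2.1-fold, SE 0.07, adjusted p = 0.000189). Neither gene overlapped between the groups. Oas1b differed by -0.58 (adjusted p = 0.0175), with a call that was lost on leaving out any 1 of 3 arrays (0.0784 without BCR-RET replicate 3).

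The sensors and regulators of the same response included Ddx58, which encodes the RNA sensor RIG-I, Irf7, a factor for interferon genes, and Irf9. Ddx58 was at 9.82, 10.16 and 9.96 against 10.71, 10.58 and 10.81 (-0.72, adjusted p = 0.00799, at most 0.0422 without an array). Irf7 was at 8.46, 8.68 and 8.21 against 9.15, 9.28 and 9.06 (-0.71, adjusted p = 0.026), and its call was lost on leaving out any 1 of 5 arrays (0.108 without FGFR1OP-RET replicate 2). Irf9 was at 9.68, 9.82 and 9.83 against 10.27, 10.38 and 10.39 (-0.57, adjusted p = 0.00604). For all 3 genes the groups were separate.

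The other calls of the list toward FGFR1OP-RET were Trim25, a ubiquitin ligase of the RIG-I pathway, at -0.52, and Xaf1, a pro-apoptotic protein, at -0.42 (adjusted p = 0.0306 and 0.0493). These calls were lost on leaving out any 1 of 6 and 9 arrays (0.118 and 0.159 without BCR-RET replicate 3). Ifit3 was at 7.79, 7.88 and 7.58 in BCR-RET cells and at 7.38, 7.27 and 7.21 in FGFR1OP-RET cells, in the other order (0.46, adjusted p = 0.0439). Its call was lost on leaving out any 1 of 8 arrays (0.139 without BCR-RET replicate 2). Mx1 and Ifi27l2a had differences of 0.31 and 0.30, and Irgm1 and Usp18 of -0.66 and -0.51, none past the threshold.

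Interferon-inducible genes outside the list, chosen after their values were seen, differed in both directions. Ifi27 was at 11.11, 11.12 and 11.20 against 11.92, 11.87 and 11.68 (-0.68, adjusted p = 0.00275). Pml, of the nuclear bodies, differed by -0.54 and Adar, an RNA editing enzyme, by -0.45 (adjusted p = 0.0164 and 0.046), with calls that were lost on leaving out any 1 of 3 and 8 arrays (up to 0.0705 without BCR-RET replicate 2, and 0.14 when FGFR1OP-RET replicate 2 was left out, in that order). Plscr1, a phospholipid scramblase induced by interferon, was higher in BCR-RET cells by 0.27 (adjusted p = 0.0499), with a call that was lost on leaving out any 1 of the 9 arrays (0.179 without BCR-RET replicate 3).

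The Schlafen genes, a family of regulators of cell growth and antiviral defence, did not move as one. Slfn4, named by its size, differed by -1.32 (adjusted p = 0.0252), with a call that was lost on leaving out any 1 of 6 arrays (0.106 without BCR-RET replicate 2). Slfn1 was at 7.63, 7.23 and 7.48 against 8.44, 8.50 and 8.58 (-1.06, adjusted p = 0.00201). Slfn5, Slfn8 and Slfn9 had differences of -0.67, -0.19 and -0.22, and Slfn2 and Slfn3 of -0.05 and 0.10, none past the threshold. Of antigen processing and MHC class I genes, 2 of 12 were higher in FGFR1OP-RET cells, against 0.853% of all genes. These were the peptide transporter Tap1 and tapasin, Tapbp, at -0.27 and -0.26 (adjusted p = 0.0499 and 0.0393), and their calls were lost on leaving out any 1 of 8 and 9 arrays (0.179 and 0.147 without BCR-RET replicate 3).

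The genes of signalling downstream of the kinase were read by pathway. STAT5 is the main factor through which interleukin-3 and many oncogenic kinases act in blood cells. Of 18 STAT5 targets, Pim2, Il2ra and Socs1 were higher with BCR-RET and Id2 was higher with FGFR1OP-RET, against 0.476% and 0.853% of all genes. The list median was -0.00, and 2 to 3 of its members passed when an array was left out. Pim2, a survival kinase, was at 12.13, 12.37 and 12.09 against 11.31, 10.81 and 11.07 (2.19-fold, SE of the log2 difference 0.12, adjusted p = 0.003). The groups did not overlap. Socs1, a feedback inhibitor of JAK kinases, differed by 0.37 (adjusted p = 0.0494), with a call that was lost on leaving out any 1 of the 9 arrays (0.156 without BCR-RET replicate 2). Cish, another feedback inhibitor, had a difference of 0.37 (adjusted p = 0.0954), and Pim1 and Socs2 of 0.20 and 0.00.

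Of 28 RET ligand, co-receptor and adaptor genes, Dok2, a docking protein that RET phosphorylates, was higher in BCR-RET cells by 0.33 (adjusted p = 0.0207). Cbl, the ubiquitin ligase that turns over active receptor kinases, was higher in FGFR1OP-RET cells (-0.27, adjusted p = 0.0313). Thus 7.14% of the 28 passed, against 1.33% of all genes. The calls were lost on leaving out any 1 of 6 and 9 arrays (0.0844 without BCR-RET replicate 2 and 0.116 without BCR-RET replicate 3). None of 24 ERK targets and feedback genes passed, and their median was -0.12. The ERK phosphatase Dusp6 was at 10.57, 10.13 and 10.15 against 11.09, 10.82 and 10.58, with a difference of -0.55 (adjusted p = 0.124), and Dusp5 had one of -0.35 (adjusted p = 0.085). Neither gene overlapped between the groups. Of 24 genes of PI3K, AKT and FOXO, 1 passed, against 1.33% of all genes. This was the catalytic subunit Pik3cb, at -0.35 (adjusted p = 0.0278), with a call that was lost on leaving out any 1 of 7 arrays (0.103 without FGFR1OP-RET replicate 2).

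Kinases and adaptors of immune receptor signalling, chosen after their values were seen, were higher in FGFR1OP-RET cells in several cases. Syk, the kinase that couples ITAM receptors to the cell interior, was at 10.29, 10.19 and 10.15 against 10.59, 10.61 and 10.64 (-0.40, adjusted p = 0.00625, at most 0.0394 without an array). Pik3ap1, the adaptor BCAP, differed by -0.42 and Nfam1, an ITAM receptor, by -0.44 (adjusted p = 0.00645 and 0.00705, at most 0.0369 and 0.0389). Sh2d3c, an adaptor of receptor kinases, was at 8.79, 8.78 and 8.80 against 9.25, 9.26 and 9.24 (-0.46, adjusted p = 0.00229). Rasa2, which switches off RAS, was at 10.32, 10.28 and 10.33 against 10.77, 10.77 and 10.79 (-0.47, adjusted p = 0.00224). The spread within each group was small beside these differences.

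Weaker calls in the same direction included the kinase Fes at -0.45, the adaptor Dok3 at -0.49, the protein kinase C Prkcd at -0.35 and Csk, the kinase that restrains SRC family kinases, at -0.35. Their adjusted p was 0.0182, 0.0224, 0.0491 and 0.0499, and their calls were lost on leaving out any 1 of 4, 6, 9 and 8 arrays. The highest values were 0.0826 and 0.084 without BCR-RET replicate 2 for Fes and Dok3, and 0.159 and 0.171 without BCR-RET replicate 3 for Prkcd and Csk. Gab3, a docking adaptor, was higher in BCR-RET cells by 0.44 (adjusted p = 0.0229), with a call that was lost on leaving out any 1 of 4 arrays (0.0971 without FGFR1OP-RET replicate 2).

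None of 26 genes in the list of integrins and adhesion passed, and its median was 0.05. A further 5 genes, chosen after their values were seen, were higher in FGFR1OP-RET cells. These were Flna (filamin A) at -0.42, Myo1f (a myosin of leukocytes) at -0.63, Fermt3 (kindlin 3, an integrin activator) at -0.40, Actn1 (alpha-actinin) at -0.36 and Srf, the transcription factor of actin genes, at -0.35. Their adjusted p lay between 0.026 for Myo1f and 0.0494 for Actn1. Each of these 5 calls was lost on leaving out any 1 of 6 to 8 arrays, with 0.117, 0.107, 0.144, 0.171 and 0.158 without BCR-RET replicate 3 in that order.

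Of 28 centrosome genes 1 passed (3.57%), against 1.33% of all genes. Nin, which encodes the microtubule-anchoring protein ninein, was at 10.77, 10.67 and 10.66 in BCR-RET cells and at 11.14, 11.16 and 11.20 in FGFR1OP-RET cells, without overlap (-0.46, SE 0.05, adjusted p = 0.003). The list median was -0.06.

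The remaining large differences toward BCR-RET were of other kinds. Odf3b, related to a protein of sperm tail outer dense fibres, was at 10.75, 10.75 and 10.38 against 9.21, 9.25 and 8.68 (2.98-fold, SE of the log2 difference 0.20, adjusted p = 0.00604). Muc13, a transmembrane mucin, was at 12.10, 12.35 and 12.22 against 11.17, 11.09 and 11.25 (2.07-fold, SE 0.09, adjusted p = 0.00132). Both were separate on every array. Ctla2a, a cysteine protease inhibitor of activated T cells and mast cells, differed by 1.18 and Cltrn, a membrane protein called collectrin, by 1.07 (adjusted p = 0.00591 and 0.00546, at most 0.0331 and 0.0289 without an array).

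Enzymes higher in BCR-RET cells included Car13, a carbonic anhydrase, and the aldo-keto reductases Akr1c12 and Akr1c13. Car13 was at 9.998, 10.63 and 10.55 against 8.73, 9.02 and 9.56 (1.29, adjusted p = 0.0393), with a call that was lost on leaving out any 1 of 7 arrays (0.158 without BCR-RET replicate 3). Akr1c12 differed by 1.10 and Akr1c13 by 0.98 (adjusted p = 0.00913 and 0.0216), with calls that were lost on leaving out any 1 of 2 and 5 arrays (up to 0.0566 without BCR-RET replicate 2, and 0.1 when FGFR1OP-RET replicate 2 was left out, in that order). The Akr1c genes are close copies whose probes may share signal. Nudt7, a peroxisomal coenzyme A hydrolase, was at 9.35, 9.26 and 9.36 against 8.73, 8.71 and 8.75 (0.59, adjusted p = 0.000896), and Asb11, a ubiquitin ligase subunit, at 9.06, 8.995 and 9.02 against 8.04, 8.004 and 8.15 (0.96, adjusted p = 0.000205). Nudt7 and Asb11 were chosen after their values were seen.

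Mitochondrial genes gave few calls. Tomm5, of the protein import complex of the outer membrane, differed by 1.02 (adjusted p = 0.0485), with a call that was lost on leaving out any 1 of 8 arrays (0.148 without BCR-RET replicate 3). None of 22 respiratory chain genes passed, but 20 had a difference above 0 and their median was 0.18, against 0.03 for all genes. All BCR-RET arrays were above all FGFR1OP-RET arrays for 10 of the 22, against 8.77% of all genes. The list mean was 12.20, 12.29 and 12.41 on the BCR-RET arrays and 12.07, 12.08 and 12.10 on the FGFR1OP-RET arrays, with BCR-RET replicate 3 highest.

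Ndufs4, a subunit of complex I chosen after its values were seen, was at 13.01, 13.16 and 13.45 against 12.41, 12.41 and 12.42 (0.79, adjusted p = 0.045). Uqcrh, of complex III and likewise chosen, was at 13.03, 13.00 and 13.31 against 12.52, 12.60 and 12.49 (0.58, adjusted p = 0.0345). Both calls were lost on leaving out any 1 of 7 arrays (up to 0.158 without BCR-RET replicate 3, and 0.0999 when FGFR1OP-RET replicate 2 was left out, in that order). Ndufa4 had a difference of 0.63 (adjusted p = 0.0501), whereas the complex I subunit Ndufs1 had one of 0.06. Ribosomal protein genes, a list chosen after their values were seen, had a median of 0.05 with 46 of 57 above 0, and none passed. The median gene length was 9.6 kb for the respiratory list and 3.18 kb for the ribosomal list, against 17.7 kb for all genes, and 18.72 and 25.37 kb for the changed genes higher in BCR-RET and in FGFR1OP-RET cells. The part of gene length or RNA quality in these differences was not tested.

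No gene passed in the lists of cyclins, DNA replication and mitosis, Myc and ribosome biogenesis, BCL2 family, glycolysis and hypoxia, cholesterol synthesis, NF-kB, integrins, inflammasome, or granzymes. The same held for the lists of amino acid stress and of erythroid, mast cell, dendritic cell and stromal markers. The medians of these lists lay between -0.07 and 0.06, as the plot of the list medians shows. Among markers of other cell types, Ear6, an eosinophil ribonuclease, was higher in BCR-RET cells by 0.35 (adjusted p = 0.0433). Its call was lost on leaving out any 1 of the 9 arrays (0.141 without BCR-RET replicate 2). Ear6 lay low, at 6.72 to 7.27 over the 6 arrays. It was the only call among 8 eosinophil genes (12.5%), against 1.33% of all genes. Cpa3, a mast cell protease, was at 10.25, 10.997 and 11.11 in BCR-RET cells and at 9.44, 9.46 and 10.50 in FGFR1OP-RET cells, with overlap (0.99, adjusted p = 0.218).

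**Figure D5:**
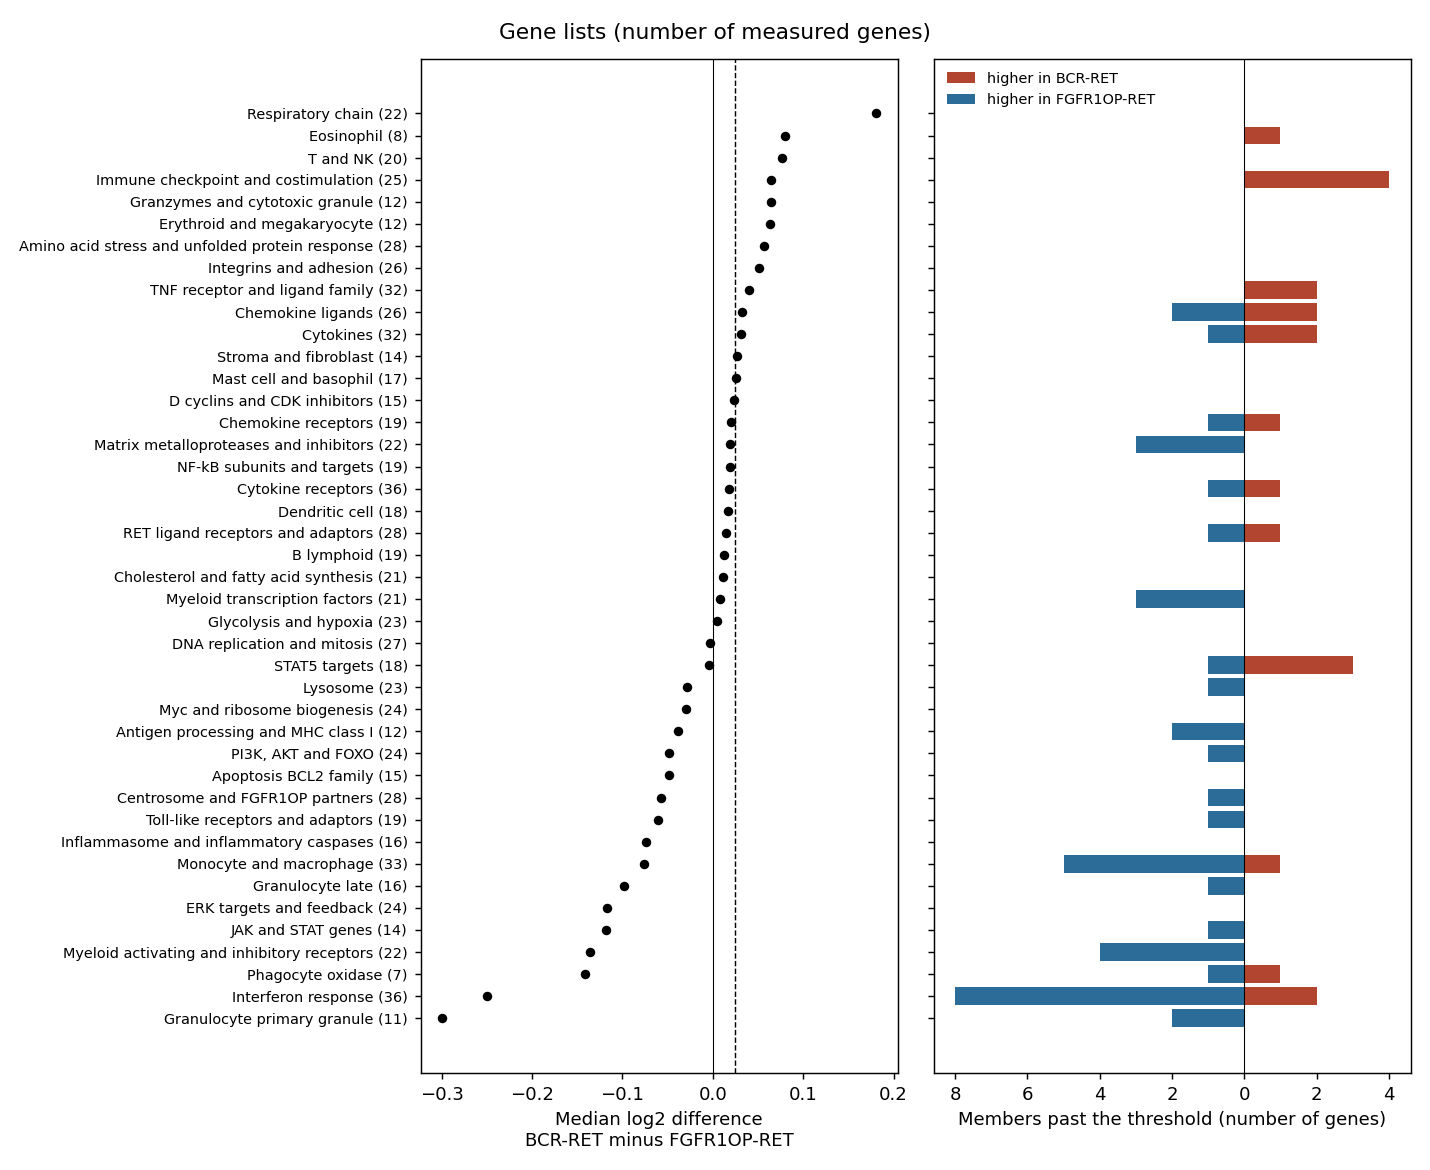
Median log2 difference between BCR-RET and FGFR1OP-RET cells of the gene lists shown (left, with a dashed line at the median of all genes, 0.03) and the number of its members past an adjusted p of 0.05 in each direction (right). The respiratory chain list has the highest median, 0.18, with no member past the threshold, and the primary granule and interferon lists have the lowest, -0.30 and -0.25.

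The BCR-ABL arrays give a further level for the same genes. Both comparisons with BCR-ABL share these 3 arrays, so their values are set side by side only. Pdcd1 was at 7.22 ± 0.07 (SD, n = 3) in BCR-ABL cells, 2.08 below BCR-RET (adjusted p = 2.86e-06) and 0.19 below FGFR1OP-RET (adjusted p = 0.426). Il6 and Muc13 had the same order, with BCR-RET above BCR-ABL by 1.07 and 1.12 (adjusted p = 0.00153 and 0.000644) and FGFR1OP-RET at 0.00 and 0.07 from it (adjusted p = 0.997 and 0.852). For these genes the BCR-RET arrays were the ones that stood apart.

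Other genes high in BCR-RET cells were at a like level with BCR-ABL. Pim2 was at 12.06 ± 0.07 in BCR-ABL cells (SD, n = 3), where BCR-RET minus BCR-ABL was 0.14 (adjusted p = 0.666) and FGFR1OP-RET minus BCR-ABL was -0.99 (adjusted p = 0.00511). For Odf3b the same differences were -0.15 and -1.73 (adjusted p = 0.774 and 0.00403), and for Akr1c12 they were -0.07 and -1.17 (adjusted p = 0.87 and 0.00667). Here the FGFR1OP-RET arrays were the low ones. Tnfrsf9 lay between, at 1.17 and -0.63 (adjusted p = 0.00326 and 0.0486).

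Among genes high in FGFR1OP-RET cells, the differences of BCR-RET and of FGFR1OP-RET from BCR-ABL were -0.29 and 1.30 for Ccr1 (adjusted p = 0.582 and 0.0146). For Cd14 they were -0.15 and 1.06 (adjusted p = 0.72 and 0.0146), and for Pram1 -0.01 and 1.03 (adjusted p = 0.985 and 0.00314). For Oas2 they were 0.67 and 1.94 (adjusted p = 0.0817 and 0.000507), and for Oas3 0.21 and 1.28 (adjusted p = 0.279 and 0.000106). In these genes the FGFR1OP-RET arrays stood above both other groups. Mmp9 had differences of -0.59 and 0.86, neither past the threshold (adjusted p = 0.261 and 0.0637).

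Some genes were lowest in BCR-RET cells with FGFR1OP-RET near BCR-ABL. For Igf1r the differences of BCR-RET and of FGFR1OP-RET from BCR-ABL were -0.73 and -0.17 (adjusted p = 0.000342 and 0.262), and for Rasa2 they were -0.57 and -0.10 (adjusted p = 0.000644 and 0.487). For Cfp they were -0.93 and 0.01 (adjusted p = 0.0204 and 0.991). Cdh17, a cadherin chosen after its values were seen, had -1.10 and -0.31 (adjusted p = 0.0101 and 0.515), and its difference between the RET fusions was -0.79 (adjusted p = 0.0322), a call that was lost on leaving out any 1 of 7 arrays (0.116 without BCR-RET replicate 3). Tmem119, a bone and microglial membrane protein, also chosen so, was lower with both RET fusions than with BCR-ABL, with differences of -1.46 and -0.87 (adjusted p = 8.54e-05 and 0.00182). Between the RET fusions it differed by -0.59 (adjusted p = 0.00802), with 0.0505 without FGFR1OP-RET replicate 2.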

How the data were processed

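Per the submitters' processing notes, the authors ran RMA in Affymetrix Expression Console, which gave the deposited log2 values. The sources used here do not name its version, an annotation or a build. Detection calls and scanner files were not used, and the number of arrays limits the precision. Of 35557 probe sets, 21789 had 1 gene symbol, 1621 had several and 12147 had none; the last 2 kinds were left out.

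The 9 arrays were grouped by their titles and fitted with limma 3.58.1 in R 4.3.3 (lmFit and eBayes), with a mean for each group and a spread estimated over the 3 groups. The threshold was a Benjamini-Hochberg adjusted p of 0.05 over all 19938 genes, with no filter on low values. At an unadjusted p under 0.05, 2964 genes differed. RMA makes the arrays' distributions alike, so a shift of most transcripts in one direction would not be seen. Exact repeats of a value occurred, with the same value on at least 3 of the 9 arrays in 30.1% of the genes. In 872 genes the 3 arrays of a group were identical, among them 3 of the changed genes. The script was tested on simulated data.

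Genes were named by a rule: the 12 highest and 12 lowest differences among changed genes without overlap, leaving out predicted genes; up to 4 changed members of each list with at least 2 (up to 6 for the granulocyte, monocyte and interferon lists); the fusion partners; and cell type markers. Genes outside it are given as chosen after their values were seen, or as members of a list without a call. The members, the 44 gene lists (939 genes, 871 measured) and the rule were chosen with earlier results of these data known. Promoter sequences were matched by symbol for 15614 genes in a RefSeq table of GRCm38.p6, and the 250 bases upstream of the start were searched. Alternatives covered the arrays, replicate block, filters, scaling, probe sets, trend and array weights. Results on 1 of the lists are not reported here.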

Additional observations from a re-analysis of the deposited data

How the results depend on the processing

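With all 9 arrays 265 genes changed, 32 of them by at least 2-fold. With only the 6 RET fusion arrays the counts were 34 and 12, and with all probe sets tested the first was 101, of which 81 were among the 265. Leaving out each array in turn gave 86 to 194 changed genes and 17 to 35 of at least 2-fold. The remaining settings gave 209 to 295 changed genes, apart from the replicate block. The labels do not say whether replicate numbers pair the arrays. Deviations of arrays with the same number correlated at 0.498, -0.152 and 0.410 across genes. BCR-RET replicate 2 correlated best with FGFR1OP-RET replicate 3 (0.400). The primary granule mean rose from replicate 1 to 3 in every group (8.582, 8.715 and 8.97 with BCR-ABL, 8.914, 9.108 and 9.407 with BCR-RET, 9.065, 9.485 and 9.655 with FGFR1OP-RET). The late granulocyte mean did not (9.432, 9.284 and 9.502 with BCR-RET). Whether arrays of a number share a batch was not tested. A block for the replicate number gave 1135 genes, 561 higher with BCR-RET and 574 with FGFR1OP-RET, which included all 265; 35 changed by at least 2-fold. Of 130 single genes examined that passed, none changed direction under any setting run. Slfn2, which did not pass, had a difference of -0.05 with all arrays and of -0.13 to 0.11 when an array was left out, the highest without FGFR1OP-RET replicate 2. Of the 130 genes, 55 passed without each array in turn and 75 did not; with the 6 arrays alone 97 did not pass, with all probe sets 67, with an eBayes trend 18 and with quantile normalization 13. The 3 arrays of a group limit what can be seen, and the deposited values hold no measure of depth or background.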

Other observations

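Genes of vesicle transport and the cell surface, chosen after their values were seen and described in no list, also differed between the RET fusions. Rab38, a GTPase of lysosome-related organelles, was at 10.79, 11.24 and 10.88 in BCR-RET cells and at 10.13, 10.14 and 10.17 in FGFR1OP-RET cells, without overlap (0.83, SE 0.11, adjusted p = 0.00775, at most 0.0492 without an array). Slc18a2, the vesicular monoamine transporter of neurons and mast cells, was at 13.00, 13.03 and 12.77 against 12.46, 12.28 and 12.34 (0.57, adjusted p = 0.0116), and its adjusted p was 0.063 without FGFR1OP-RET replicate 2. Cpne5, a calcium-dependent membrane-binding protein, was at 8.03, 8.02 and 8.01 against 7.34, 7.49 and 7.48 (0.59, adjusted p = 0.00591). Pgf, placental growth factor, was higher in BCR-RET cells by 0.54 (adjusted p = 0.0313), with 0.109 without BCR-RET replicate 3.

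Rgs1, a regulator of G protein signalling that dampens chemokine receptors, was at 6.64, 6.12 and 6.44 in BCR-RET cells and at 7.34, 7.24 and 7.44 in FGFR1OP-RET cells (-0.94, SE 0.11, adjusted p = 0.00591, at most 0.0263 without an array). Arid3a, a DNA-binding protein of B cells and blood progenitors, was at 9.30, 9.28 and 9.33 against 9.84, 9.76 and 9.81 (-0.50, adjusted p = 0.00201). Mocos, which activates molybdenum enzymes, and Micall1, of endosome recycling, differed by -0.68 and -0.47 (adjusted p = 0.00591 and 0.00574). In each of these genes the 3 FGFR1OP-RET arrays lay above the 3 BCR-RET arrays.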
